A study of Mus musculus with 10 samples.

Results

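The secondary and tertiary granule genes described here are *Ltf*, *Camp*, *Ngp*, *Lcn2*, *Chil3*, *Mmp8*, *Mmp9* and *Ly6g*, chosen by gene symbol, and all 8 of the 8 symbols were found among the 13091 genes listed in the deposited tables. The libraries came from mouse neutrophils differentiated in culture from clonal progenitors, which were bone marrow cells immortalized with an estrogen-dependent HoxB8 and allowed to mature once estrogen was removed. The labels give 2 biological replicates of *Vim*+/+ and 3 of *Vim*-/- neutrophils, both for unstimulated cells and for cells given LPS at 25 ng/mL for 1 hour, which makes 10 libraries of polyA RNA in 4 groups. Whether each replicate is a separate clone is not stated in the sources used here. All carry the immortalizing HoxB8 construct, the labels give the strain as 129-SVEV, and the vimentin-negative cells are named a knockdown in the labels and knockout-derived in the study's methods. Each progenitor line grew from a single sorted cell.

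The measurement used is the authors' mean normalized count of each gene, 1 pooled value per gene, and its unit is reads after the authors' scaling for depth. It is the same in all 4 tables (largest difference 0.0) and is therefore read here as a mean over all the libraries, although the tables do not say which libraries it covers. The tables' other columns are the authors' own comparisons between the groups, and no value from them is given. Levels per genotype, per treatment or per library were therefore not analysed here, there is no spread between replicates to set beside a value, and no test was run. For the same reason *Vim*, at a pooled mean of 39926 normalized counts, cannot serve as a check of the genotype labels. The depth of each library is unknown.

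Neutrophils store their antimicrobial and matrix-degrading proteins in granules that form in waves as the cell matures. Primary granules fill at the promyelocyte stage, secondary (specific) granules at the myelocyte stage and tertiary (gelatinase) granules later, and each cargo protein goes to the granule that is being built when its gene is transcribed. The transcription factor C/EBPε is known to be needed for the genes of secondary granules, and their mRNAs fall off again in fully mature cells.

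All 8 granule genes lay far up in the order of levels. Since longer transcripts collect more reads, levels were compared per kilobase of the longest transcript of each gene, and 12061 of the 13091 genes (92.1%) had such a length. *Ngp* ranked 3 among them and *Ly6g*, the lowest of the 8 granule genes, ranked 309. The product of *Ly6g* is a surface protein, and the lowest of the other members was *Mmp8* at rank 135. Even for *Ly6g*, 97.4% of genes had a lower level per kilobase. In all, 5 of the 8 genes were among the 50 highest, 6 among the 100 highest and 8 among the 500 highest. Together they held 2306049 of 55507688 normalized counts, or 4.15%, where 8 genes of average level would hold 0.0611%.

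**Figure D1:**
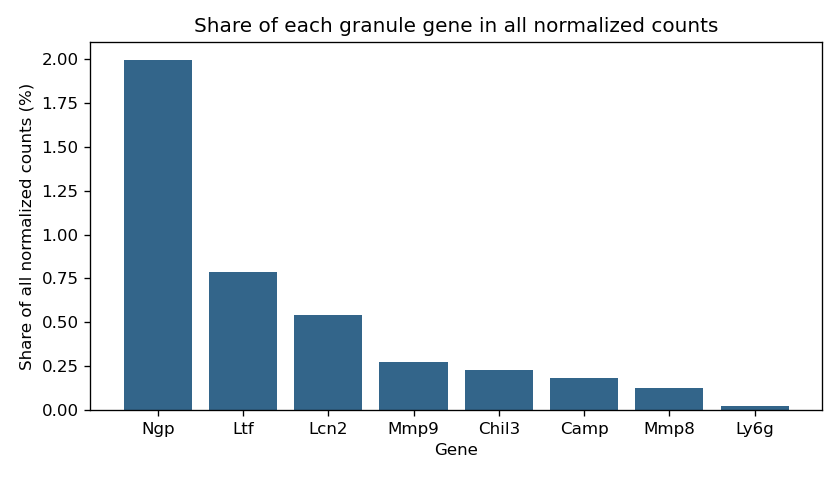
Bars give the share of each granule gene in all normalized counts (percent, from the authors' pooled mean, with no error bars because there is 1 value per gene). *Ngp* alone holds 1.995%, and the other genes descend from 0.785% for *Ltf* to 0.0205% for *Ly6g*.

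Among the antimicrobial proteins of secondary granules, *Ngp* stood out. It encodes neutrophilic granule protein, a relative of the cathelicidins and cystatins. Its pooled mean was 1107492 normalized counts, the second highest of all listed genes (rank 2), and it made up 48.0% of the counts of the 8 genes. Per kilobase its level was 906294, below *S100a9* and *S100a8* and above *Ftl1*, the ferritin light chain, at 465105. *Camp*, which encodes the cathelicidin from which the antimicrobial peptide CRAMP is cut, had a pooled mean of 101227 normalized counts and a level per kilobase of 133544 (rank 19), so that the level of *Ngp* was 6.79 times that of *Camp*, and 11.3 times per kilobase of coding length. Beside *Camp* in the order stood *Ifitm1* at 149818 and *Stfa3* at 133136 per kilobase.

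*Ltf* and *Lcn2* encode proteins that keep iron from microbes. Lactoferrin, the product of *Ltf*, binds iron itself, and lipocalin-2, the product of *Lcn2*, binds bacterial siderophores. *Ltf* had a pooled mean of 436010 normalized counts and *Lcn2* of 300862. Per kilobase the order turned, with *Lcn2* at 218968 (rank 12) and *Ltf* at 158954 (rank 15), because the longest transcript measured 2743 bases for *Ltf* and 1374 for *Lcn2*. The level of *Lcn2* was then 1.38 times that of *Ltf*, whereas with the shortest coding transcript of each gene *Ltf* was 5.65 times as high as *Lcn2*. With 1 pooled value per gene it cannot be said whether neighbours this close differ beyond their spread.

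*Chil3* encodes a chitinase-like lectin without enzyme activity, also known as Ym1. Its pooled mean was 127146 normalized counts and its level per kilobase 82616 (rank 32), between *Tyrobp* at 84348 and *Ccl6* at 82613. *Chil3* shares more sequence with other genes than the other 7 members do. Of the 1490 windows of 50 bases in its longest transcript, 438 (29.4%) also occur in transcripts of another gene, 275 of them in those of *Chil4* and 217 in those of *Gm6522*. The study's paired reads were longer than these windows, so 29.4% is not the share of reads that fit several genes. *Chil4* itself was listed at 7.38 normalized counts and *Chil5* at 75.5, whereas *Chil1*, another gene of the family, reached 114958 counts and 62511 per kilobase. How the authors' counting treated reads that fit several genes is not given in the sources used here.

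The metalloproteinases came next. *Mmp8*, neutrophil collagenase, is stored in secondary granules, and *Mmp9*, gelatinase B, defines the tertiary ones. *Mmp9* had a pooled mean of 153228 normalized counts and a level per kilobase of 48261 (rank 69), and *Mmp8* had 68713 counts and 28335 per kilobase (rank 135). The level of *Mmp9* was 1.70 times that of *Mmp8*, and 13.0 times with the shortest coding transcript of each gene. Both were far above the other metalloproteinases of the list, of which 5 of 7 were in the tables. *Mmp19* reached 2038 per kilobase and *Mmp13* 1261, while *Mmp2*, *Mmp12* and *Mmp14* lay between 9.88 and 10.3, and *Mmp3* and *Mmp7* were not listed. Of the inhibitors of these enzymes, *Timp2* stood at 2634 and *Reck* at 161 per kilobase, and *Timp1*, *Timp3*, *Timp4* and *A2m* were not listed.

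*Ly6g* encodes a GPI-anchored surface protein that is used to identify mouse neutrophils rather than a soluble granule protein. At 11373 normalized counts and 12086 per kilobase it was the lowest of the 8 genes, and the level of *Ngp* was 75.0 times that of *Ly6g*. With the shortest coding transcript this ratio was 26.8 and *Mmp8* was the lowest. By the longest transcript, *Ly6g* still stood at 39.0 times the median gene, which had 310.2 per kilobase. Within its family, *Ly6e* was higher at 22443 per kilobase and *Ly6c2* near it at 9881, and *Ly6a*, *Ly6i* and *Ly6c1* were at 620, 40.3 and 17.1. Sequence shared with relatives was small for *Ly6g*, at 4 of 892 windows of 50 bases. The other 6 members, *Ltf*, *Camp*, *Ngp*, *Lcn2*, *Mmp8* and *Mmp9*, shared 0 windows with any other gene, and no gene model of GENCODE M21 overlapped any of the 8 genes on either strand.

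A list of 18 other genes linked to secondary and tertiary granules spread more widely than the 8 granule genes. It had 15 genes in the tables, and 10 of these lay above *Ly6g*. The list includes *BC100530*, *Stfa2* and *Stfa3*, which encode stefins, cytosolic protease inhibitors, *Ltb4r1*, which encodes a surface receptor for leukotriene B4, and *Bpi*, whose product is known from primary granules. Without these 5 genes, a choice made after the values were seen, 7 of 10 lay above *Ly6g*. *BC100530* was the highest of the 15 at 432467 per kilobase (rank 5), followed by *Lyz2*, lysozyme, at 402685, and haptoglobin (*Hp*), *Pglyrp1*, *Olfm4* and *Cd177* were at 116933, 123602, 57346 and 23958. At the other end were *Cfp* at 6025, *Orm1* at 1041, *Arg1* at 202 and *Bpi* at 12.8 per kilobase. *Orm2*, *Mmp25* and *Ptx3* were not listed. None of the 15 exceeded *Ngp*. The median of the 15 genes was 23958 per kilobase, or 20811 for the 10 genes, and that of the 8 granule genes 108080. Membrane proteins of the granules were all listed, 8 of 8, from *Slc11a1* at 1184 to *Cyba*, the small subunit of the NADPH oxidase, at 74470 per kilobase.

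A list of genes linked to primary granules was in the tables with 9 of 9 genes, between 3022 for *Gusb* and 62605 for *Prtn3*, proteinase 3. *Mpo*, myeloperoxidase, stood at 44276 and *Elane*, neutrophil elastase, at 22303. The median of the list was 14180 per kilobase, and 5 of its genes lay above *Ly6g*. The list includes *Serpinb1a*, which encodes a cytosolic protease inhibitor, and *Ms4a3*, which encodes a membrane protein. Without these, a choice made after the values were seen, the median was 11462 and 3 of 7 genes lay above *Ly6g*. Per kilobase of the longest transcript and of coding length, *Ngp*, *Lcn2*, *Ltf*, *Camp* and *Chil3* were each above every primary granule gene of the list. *Camp* was not above *Mpo* by the shortest coding transcript, nor in normalized counts without a length, where *Mpo* had 121760, and *Mmp9* was above every gene of the list in both. This is a description of pooled means, without a test.

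**Figure D2:**
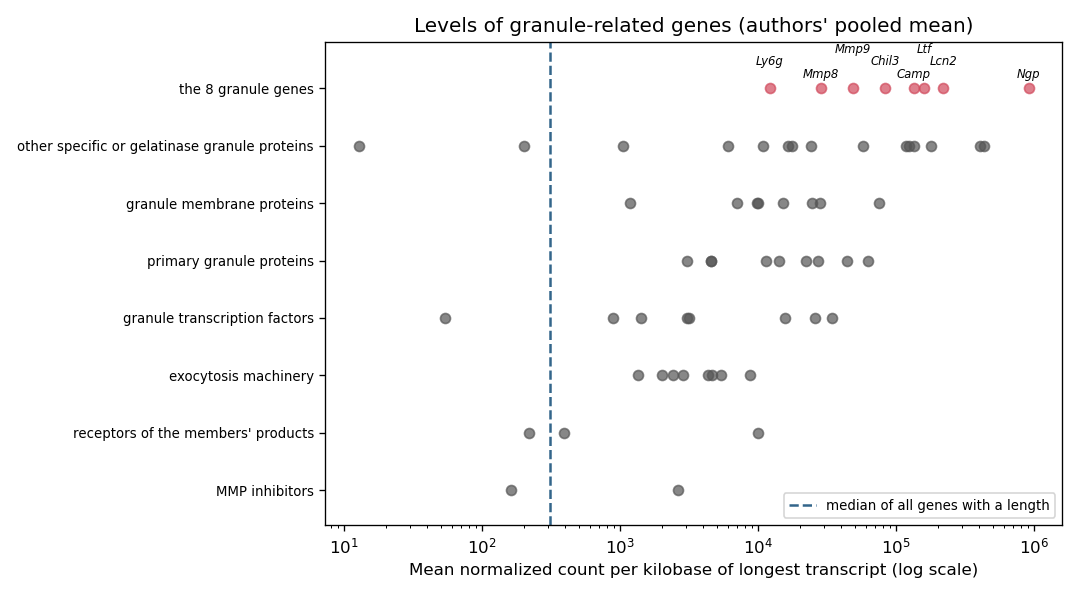
Each point is 1 gene, placed by its mean normalized count per kilobase of longest transcript on a log axis, in rows for the 8 granule genes and for 7 lists of related genes. The 8 granule genes span 12086 to 906294, and the dashed line marks the median of all genes with a length, 310.2.

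Transcription factors that drive granule genes were all listed, 8 of 8. *Cebpe*, which encodes C/EBPε, stood at 15629 per kilobase (rank 246), *Cebpb* at 34239 and *Spi1*, which encodes PU.1, at 25805. *Cebpa*, *Cebpd*, *Gfi1*, *Runx1* and *Klf5* were between 53.7 and 3140. The machinery that moves granules to the membrane and fuses them was listed in full as well, 8 of 8 genes between 1340 for *Vamp2* and 8714 for *Stxbp2*, with the small GTPase *Rab27a* at 5407. Every one of them lay below *Ly6g*. Of the receptors that take up or sense the products of the 8 genes, *Fpr2*, a receptor for cathelicidin peptides, stood at 10016, *P2rx7* at 392 and *Lrp1* at 220, and *Lrp2* and *Slc22a17* were not listed.

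As a check of the cell type, 8 of 8 neutrophil markers were listed, led by *S100a9* at 2487149 and *S100a8* at 1883886 per kilobase, the highest and second highest of all genes (ranks 1 and 2), and down to *Cxcr2* at 11905. Genes of eosinophil granules were high too, with *Prg2* at 320189 and *Epx* at 53096 per kilobase, while the eosinophil receptors *Ccr3* and *Il5ra* were at 20.1 and 36.7 and *Siglecf* at 1764. *Cpa3*, a mast cell and basophil protease, stood at 18148, and 4 other genes of that list between 248 and 2965. Macrophage and monocyte markers reached at most 5450 (*Cd68*), with 4 of 7 listed. The progenitor markers were at most 837 (*Cd34*). Of the erythroid, platelet, B cell and T cell lists, 1 of 4, 3 of 3, 1 of 3 and 0 of 3 genes were listed, the highest of them *Itga2b* at 1897. In bulk RNA, fewer cells of a type and less RNA per cell cannot be told apart, and the part that other cells have in the levels of the granule genes was not tested.

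The 8 genes lie on 4 chromosomes of GRCm38, the build that corresponds to the authors' mm10, and the positions given are those of GENCODE M21. On chromosome 9 are *Camp* (109847379 to 109849617), *Ngp* (110419747 to 110423012), *Ltf* (111019271 to 111042767) and, far from these, *Mmp8* (7558456 to 7568485). *Camp* and *Ngp* are separated by 570129 bases with 8 protein-coding genes between them, and *Ngp* and *Ltf* by 596258 bases with 20. *Lcn2* (32384633 to 32388252) and *Mmp9* (164940780 to 164955850) are on chromosome 2, *Chil3* (106147554 to 106167564) on chromosome 3 and *Ly6g* (75155240 to 75159126) on chromosome 15. The longest transcripts have 4 exons for *Camp*, *Ngp* and *Ly6g*, 5 for *Lcn2* and 17 for *Ltf*.

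RefSeq promoter sequence was matched for 7 of the 8 genes. The 250 bases before RefSeq's transcription start are shown for *Ngp* and *Ly6g*, the highest and lowest of the 8 genes per kilobase, and for *Ltf*, a classical secondary granule gene. RefSeq's starts of these 3 genes, at 110419808 for *Ngp*, 111019292 for *Ltf* and 75155261 for *Ly6g*, lie downstream of those of GENCODE M21, so that the last bases of each window fall within the GENCODE gene. Capitals mark matches to TTGCNNAA, a C/EBP-type motif, read on both strands. The windows are on RefSeq's GRCm38.p6, at chr9:110419558-110419807 (plus strand) for *Ngp*, chr9:111019042-111019291 (plus strand) for *Ltf* and chr15:75155011-75155260 (plus strand, the first of the 2 windows RefSeq gives) for *Ly6g*.
Ngp: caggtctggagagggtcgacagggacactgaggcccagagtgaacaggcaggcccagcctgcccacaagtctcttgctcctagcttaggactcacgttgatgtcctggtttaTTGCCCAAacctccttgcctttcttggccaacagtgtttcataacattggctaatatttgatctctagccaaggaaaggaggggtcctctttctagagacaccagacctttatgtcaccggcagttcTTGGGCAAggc
Ltf: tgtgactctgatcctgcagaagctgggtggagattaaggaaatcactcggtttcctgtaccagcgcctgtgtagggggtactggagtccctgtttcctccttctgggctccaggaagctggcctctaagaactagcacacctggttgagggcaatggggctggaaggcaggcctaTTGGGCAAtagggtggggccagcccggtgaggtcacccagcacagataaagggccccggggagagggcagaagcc
Ly6g: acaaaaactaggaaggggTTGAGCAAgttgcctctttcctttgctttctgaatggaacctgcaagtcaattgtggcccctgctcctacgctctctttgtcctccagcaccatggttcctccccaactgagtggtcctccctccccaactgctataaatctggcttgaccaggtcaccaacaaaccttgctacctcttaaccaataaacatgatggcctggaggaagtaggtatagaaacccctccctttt
The motif occurred in 5 of the 7 windows, those of *Ngp*, *Ltf*, *Ly6g*, *Lcn2* and *Mmp8*, and not in those of *Camp* and *Chil3*. The *Lcn2* window (32387740 to 32387989), with its match, lies wholly inside the GENCODE gene, and part of the *Camp* window lies inside its gene. In *Ngp* the motif occurred at 2 places, beginning 138 and 11 bases before RefSeq's start, the second of them inside the GENCODE gene. Among the windows of 27025 genes 9.55% held it, and the share was 7.91% among the 9778 of them that the tables list. GAGGAA, a PU.1-type motif, occurred in 4 of the 7 windows and in 23.1% of all and 23.4% of the listed genes. TATAAA occurred in 1 of the 7, that of *Ly6g*, and in 13.0% of all and 6.26% of the listed genes. Both strands were searched for each motif, and matches of different motifs were allowed to overlap. A match describes the letters in the window and does not show that a factor binds there.

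The order of the 8 genes depends on the length by which a level is divided. With coding length in place of the longest transcript the order was the same, and the ranks ran from 3 for *Ngp* to 339 for *Ly6g*. With the shortest coding transcript *Ltf* (rank 3) came before *Ngp* (rank 5), *Chil3* moved to rank 7 and *Mmp8* became the lowest at rank 528. *Camp* fell from rank 19 to 73 and *Lcn2* from rank 12 to 22. Those shortest models measure 233 bases for *Ltf*, 174 for *Chil3* and 416 for *Mmp9*, which moved to rank 20.

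**Figure D3:**
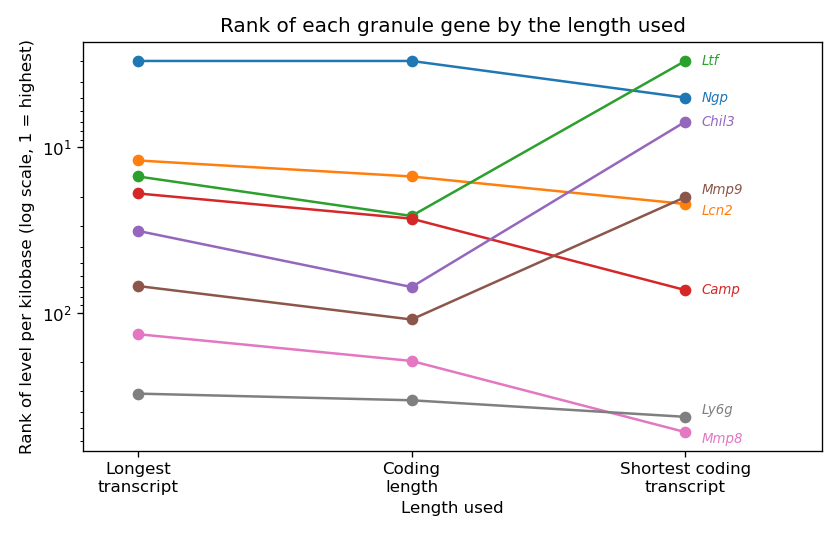
Lines join the rank of each granule gene (log axis, 1 is the highest level per kilobase) under the 3 lengths named on the horizontal axis. The order is the same for the longest transcript and the coding length. With the shortest coding transcript *Ltf*, *Chil3* and *Mmp9* move up and the other genes move down.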

How the data were processed

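Reads were trimmed by the authors with Cutadapt 4.4, aligned and quantified on mm10 with STAR 2.7.10b, and modelled by the authors with DESeq2 1.26.0 after 4 covariates of unwanted variation had been estimated with RUVSeq. The annotation and the strand setting are not given in the sources used here. The deposited signal is the authors' mean normalized count, 1 value per gene. The tables' 9 other columns hold the authors' own comparisons (log2 fold changes, standard errors, Wald statistics, p-values and labels made from them) and were not used.

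Levels were divided by the longest transcript in GENCODE M21, matched by symbol, with RefSeq lengths for the 13 mitochondrially encoded genes (Python 3.11.15, pandas 2.3.3, matplotlib 3.10.9). The ranking code was run on simulated data with known lengths, which does not test the choice of length. Windows of 50 bases were compared with all GENCODE M21 transcripts on both strands. Groups were taken from the sample titles. No test between groups was made.

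The members and lists were chosen with earlier results of these data known, and the motifs after the levels had been seen. Genes named are the members, those of the lists (except 1 that is not reported here), *Vim*, the 5 with the highest level per kilobase and the neighbours of each member in that order. Coding length, the shortest coding transcript, a minimum mean of 100 and each of the 4 tables were tried. The comparison of primary granule genes under other lengths and 2 shortened lists were added after the data were seen. The shortened lists leave out genes taken to encode no granule cargo and *Bpi*, whose product is known from primary granules. The precision of a pooled mean is unknown, since neither library depth nor spread is used.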

Additional observations from a re-analysis of the deposited data

How the results depend on the processing

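The summed level of the 8 genes was the same in the 4 tables. Their share of 4.15% became 4.19% without mitochondrially encoded genes, 4.16% among genes with a mean of at least 100 and 5.46% when shares were taken per kilobase. The median percent of genes below the 8 genes was 99.8 with the longest transcript and 99.6 with coding length. No paired analysis was possible because the values are pooled over libraries and no test was made, and leaving out a replicate, other size factors and a model of counts could not be run for the same reason. Protein identity between members was planned and not run, since no protein sequences were at hand.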
